A study of Mus musculus with 4 samples.

Results

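The genes described here encode proteins of the splicing machinery and were chosen by name. They are the genes whose single symbol in the array's annotation begins with Srsf, Hnrnp, Sf3a, Sf3b, U2af, Prpf or Snrp, without Snrpn, or with Rbfox or Mbnl followed by a digit. The rule found 67 genes, measured by 195 probe sets, of 18193 genes in all. Expression had been profiled in mouse embryonic stem cells of the E14 line, grown with serum and LIF, the cytokine that keeps such cells undifferentiated. Npac RNAi cells were transfected with a short hairpin RNA against Npac, the older name of the nucleosome-binding protein gene Glyr1, and control RNAi cells carried a control knockdown whose hairpin the labels do not describe. Both groups were put under puromycin 24 hours after transfection, kept under it for 3 days, and measured on 2 Affymetrix arrays each. The labels do not say whether replicates came from separate cultures, so p-values measure only the spread between these arrays, which may be technical.

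Introns are removed by the spliceosome, which is built from small nuclear ribonucleoproteins (snRNPs) and many further proteins. SR proteins bind exons and promote their inclusion, whereas heterogeneous nuclear ribonucleoproteins (hnRNPs) bind nascent RNA and often oppose them. U2AF marks the 3′ splice site, the SF3A and SF3B complexes belong to the U2 snRNP that recognises the branch point, and the PRPF proteins act mainly in the U4/U6.U5 tri-snRNP and in activation of the spliceosome. RBFOX and MBNL proteins are regulators of tissue-dependent exons. In mouse and human cells MBNL1 and MBNL2 are known to repress splicing patterns typical of embryonic stem cells.

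All values are RMA values on a log2 scale, and a difference is the Npac RNAi mean minus the control RNAi mean. Because RMA equalises arrays, a difference is measured against most other transcripts. Each gene was read from its probe set with the highest mean signal, and a gene was called at a Benjamini-Hochberg adjusted p under 0.05 in limma's moderated test over all 18193 genes. The targeted gene Glyr1 read 10.23 and 10.20 in Npac RNAi cells, against 11.30 and 11.32 on the control RNAi arrays, which is 46.9% of the control level. The correlation was 0.998 between replicates and 0.987 to 0.989 across groups. Probe sets for the poly-A control transcripts, which Affymetrix supplies for mixing into samples, gave a mean 0.54 above that of control RNAi arrays, in the same direction in 24 of 24. Scaling on them lowers every difference by that amount. Centring each array on the median of its gene values lowers every difference too, with a median over all genes of -0.18 in place of -0.04. The same shift was applied to the probe sets.

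The largest differences between Npac RNAi and control RNAi cells among these genes were in 4 of them. The muscleblind genes Mbnl3 (3.93-fold) and Mbnl2 (2.54-fold) and the SR-family gene Srsf12 (2.93-fold) were higher in Npac RNAi, and the Sm protein gene Snrpd3 was lower, at 48.4% of the control level. Of the 67 genes, 11 were called higher and 19 lower (44.8% called), against 40.8% called over all genes, where 22.1% were higher and 18.7% lower. The share called was thus near that of all genes, and the members' median difference of -0.04 was that of all genes (-0.04). The members have high signal, however. Of the 2595 genes at or above the lower quartile of the members' levels, 50.2% were called, with a median of 0.01. Of these, 27.6% were higher and 22.6% lower, against 16.4% and 28.4% of all 67 members. The members were thus called higher less often and lower more often than these genes. Their shares include the members below that quartile, and the difference was not tested. Of the 67 members 44 lay within 0.25 of 0 (65.7%), near the 58.6% of all genes, and 4 of the 30 called members reached 1.5-fold, 3 higher and 1 lower, while 10.1% of all genes were called at that fold. Groups did not overlap for 59 of the 67 members, a pattern seen in 74.2% of all genes. It was seen in 2287 of the 2595 genes of high signal, a share near that of the members.

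Both counts depended on the arrays used. Without Npac array 1 there were 8 members higher and 7 lower, without Npac array 2 there were 5 and 8, without control array 1 there were 7 and 10, and without control array 2 there were 5 and 6. Leaving out an array also lowers the residual degrees of freedom. The call held without each array in turn for 11 of the 30, namely Mbnl2, Mbnl3, Srsf4, Srsf5, Srsf12, Hnrnph2, Hnrnpul2, Prpf3, Snrpa1, Snrpb2 and Snrpd3. It was lost whichever array was left out for 11 others, namely Hnrnpa0, Hnrnpd, Hnrnpm, Prpf8, Prpf18, Prpf19, Prpf38b, Sf3b5, Srsf1, Srsf2 and U2af1. With spike-in scaling 3 members were higher and 60 lower, after centring 7 were higher and 36 lower, and with the mean of all probe sets of a gene 6 were higher and 27 lower. Mbnl3, Mbnl2 and Srsf12 were the members still called higher under spike-in scaling, and every other member called higher on the deposited values was below 0 there.

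**Figure D1:**
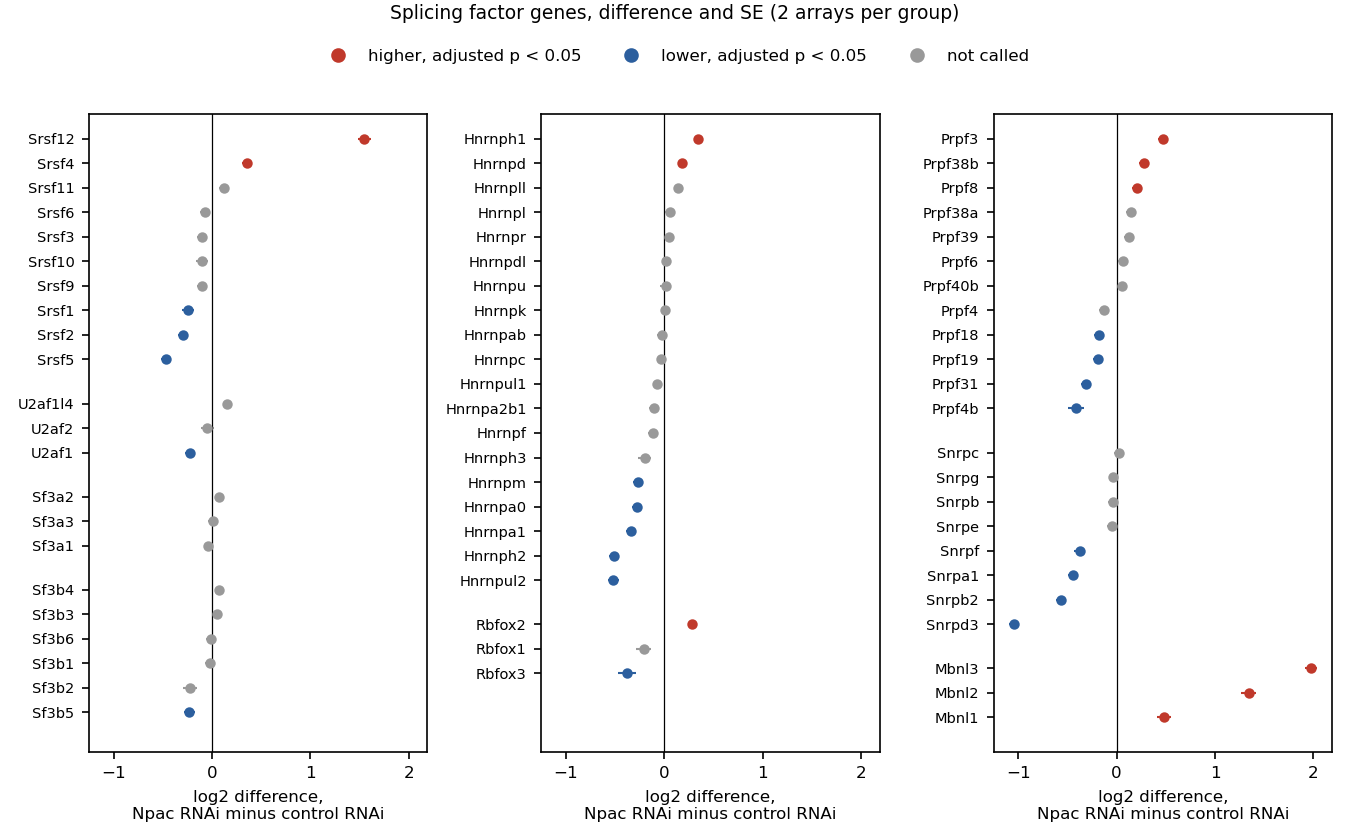
Log2 difference (Npac RNAi minus control RNAi, x axis) of each of the 67 splicing factor genes, grouped by symbol; bars are limma's standard errors (2 arrays per group), and colour marks the call. Most members sit close to 0, with Mbnl3, Srsf12 and Mbnl2 far to the right and Snrpd3 far to the left.

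The promoters of the members that differed most are shown because they let the risen and the lowered genes be set side by side. They are RefSeq sequences of the assembly GRCm38.p6, 250 bases before to 50 bases after the annotated start, 5′ to 3′ on the strand of the gene. They lie at chrX:51205941-51206240 (minus strand, Mbnl3), chr14:120275419-120275718 (plus strand, Mbnl2), chr4:33209022-33209321 (plus strand, Srsf12), chr10:75517792-75518091 (plus strand, Snrpd3) and chr2:143062819-143063118 (plus strand, Snrpb2). Capitals mark exact matches on either strand to the GC box GGGCGG, to the box named for its letters, CCAAT, or to the core that ETS factors bind, which reads CCGGAAG. None of the other searched motifs occurred in these windows. The gene Srsf12 is also annotated from chr4:33208991, upstream of its window. That window thus lies inside the gene by this annotation, and its motifs may not mark the promoter.
Mbnl3 promoter: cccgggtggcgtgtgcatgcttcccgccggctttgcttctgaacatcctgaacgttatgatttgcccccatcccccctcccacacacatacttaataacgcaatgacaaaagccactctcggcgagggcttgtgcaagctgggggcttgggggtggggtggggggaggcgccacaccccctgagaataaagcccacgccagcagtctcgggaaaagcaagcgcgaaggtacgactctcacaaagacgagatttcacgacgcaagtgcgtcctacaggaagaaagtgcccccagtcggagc
Mbnl2 promoter: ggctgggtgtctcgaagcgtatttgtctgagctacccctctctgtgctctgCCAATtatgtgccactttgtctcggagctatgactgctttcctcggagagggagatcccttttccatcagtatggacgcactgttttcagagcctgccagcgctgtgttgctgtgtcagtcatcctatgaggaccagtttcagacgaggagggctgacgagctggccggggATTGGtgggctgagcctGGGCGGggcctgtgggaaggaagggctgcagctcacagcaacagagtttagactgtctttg
Srsf12 promoter: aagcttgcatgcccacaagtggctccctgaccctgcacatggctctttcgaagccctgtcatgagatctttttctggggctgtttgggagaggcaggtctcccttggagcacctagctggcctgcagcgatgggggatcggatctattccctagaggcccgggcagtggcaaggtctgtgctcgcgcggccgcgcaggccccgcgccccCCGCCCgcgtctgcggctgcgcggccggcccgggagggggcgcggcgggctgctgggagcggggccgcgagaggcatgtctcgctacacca
Snrpd3 promoter: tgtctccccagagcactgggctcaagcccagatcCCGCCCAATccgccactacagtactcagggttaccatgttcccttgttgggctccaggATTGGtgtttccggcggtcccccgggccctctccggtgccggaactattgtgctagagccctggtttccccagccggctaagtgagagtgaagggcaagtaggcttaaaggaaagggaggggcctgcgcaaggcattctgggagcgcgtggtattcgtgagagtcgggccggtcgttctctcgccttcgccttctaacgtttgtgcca
Snrpb2 promoter: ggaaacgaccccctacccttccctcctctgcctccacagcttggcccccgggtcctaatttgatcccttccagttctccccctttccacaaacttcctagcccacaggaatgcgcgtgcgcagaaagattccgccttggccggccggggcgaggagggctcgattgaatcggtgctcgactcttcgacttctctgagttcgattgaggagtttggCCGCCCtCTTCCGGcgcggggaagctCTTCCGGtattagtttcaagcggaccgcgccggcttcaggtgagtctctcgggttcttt
Mbnl2 carried a GC box and 2 CCAAT boxes, and Srsf12 1 GC box. Snrpd3 carried a GC box and 2 CCAAT boxes, of which the upstream one shares bases with the GC box, and Snrpb2 a GC box and 2 ETS cores. The Mbnl3 window held none of the 6 motifs. GC boxes thus stood in windows of both risen and lowered genes.

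Across the members, 59 of 67 had a promoter in the table. The GC box was present in 64.4% of them, against 57.3% of the 14452 measured genes with a promoter. The ETS core CCGGAAG was present in 32.2% of members, against 15.0% of measured genes, and CCAAT in 52.5%, against 42.0%. TATAAA occurred in 10.2%, against 11.5%, the E-box CACGTG in 13.6%, against 10.2% and the YY1 motif AAGATGGC in 5.08%, against 4.07%. The ETS core was found in 3 of 10 called-higher, 4 of 16 called-lower and 12 of 33 uncalled members with a promoter, and CCAAT in 5 of 10, 11 of 16 and 15 of 33. These are matches of letters, not measured binding.

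The muscleblind genes, which encode zinc finger proteins that bind pre-mRNA and set exon inclusion during differentiation, were all 3 higher in Npac RNAi on the deposited values, with Mbnl1 at -0.06 under spike-in scaling. Mbnl3, the paralog best known from placenta, read 10.25 and 10.25 in Npac RNAi, against 8.33 and 8.22 in control RNAi. Its difference of 1.97 (SE 0.0596, limma adjusted p = 0.000704, n = 2 per group) ranked 61st highest of the 18193 genes. The arrays of each group lay close together and far from the other group. All 3 of its probe sets were higher, by 1.97, 2.21 and 1.90.

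Mbnl2 read 12.19 and 12.26 in Npac RNAi, against 10.80 and 10.97 in control RNAi, a difference of 1.34 (SE 0.0776, limma adjusted p = 0.00167). Of its 5 probe sets, 3 rose by 1.34, 1.42 and 1.30, while 1 was called lower (-0.32) and 1 was not called (0.11). The mean over its probe sets was accordingly smaller, at 0.77. Mbnl1 read 8.77 and 8.87 in Npac RNAi, against 8.40 and 8.27 in control RNAi (0.48, SE 0.0734, limma adjusted p = 0.0115). Its groups were apart, but the call was lost without Npac array 2 or control array 2 and with the mean of its 3 probe sets (0.20), since the other 2 were not called (0.09 and 0.02).

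The RBFOX genes, whose products bind a short intronic motif near regulated exons, did not move together. Rbfox2, the member expressed in many tissues, read 8.85 and 8.91 in Npac RNAi, against 8.60 and 8.59 in control RNAi (0.29, SE 0.0496, limma adjusted p = 0.0158). A second probe set of Rbfox2 was called lower (-0.29), the mean over its 4 probe sets was -0.06, and the call was lost without Npac array 2 or either control array. Rbfox3, which encodes the neuronal nuclear antigen NeuN, read 7.01 and 6.89 in Npac RNAi, against 7.23 and 7.43 in control RNAi (-0.38, SE 0.0927, limma adjusted p = 0.0367). This call was lost without either Npac array or control array 2, and with the mean of its 3 probe sets (-0.03), since the other 2 were not called (0.20 and 0.09). Rbfox1 read 5.06 and 4.96 in Npac RNAi, against 5.30 and 5.15 in control RNAi, and was not called (limma adjusted p = 0.0907). At a mean of 5.12 it lay below the 25th percentile of gene means (5.51), where background weighs on RMA values.

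**Figure D2:**
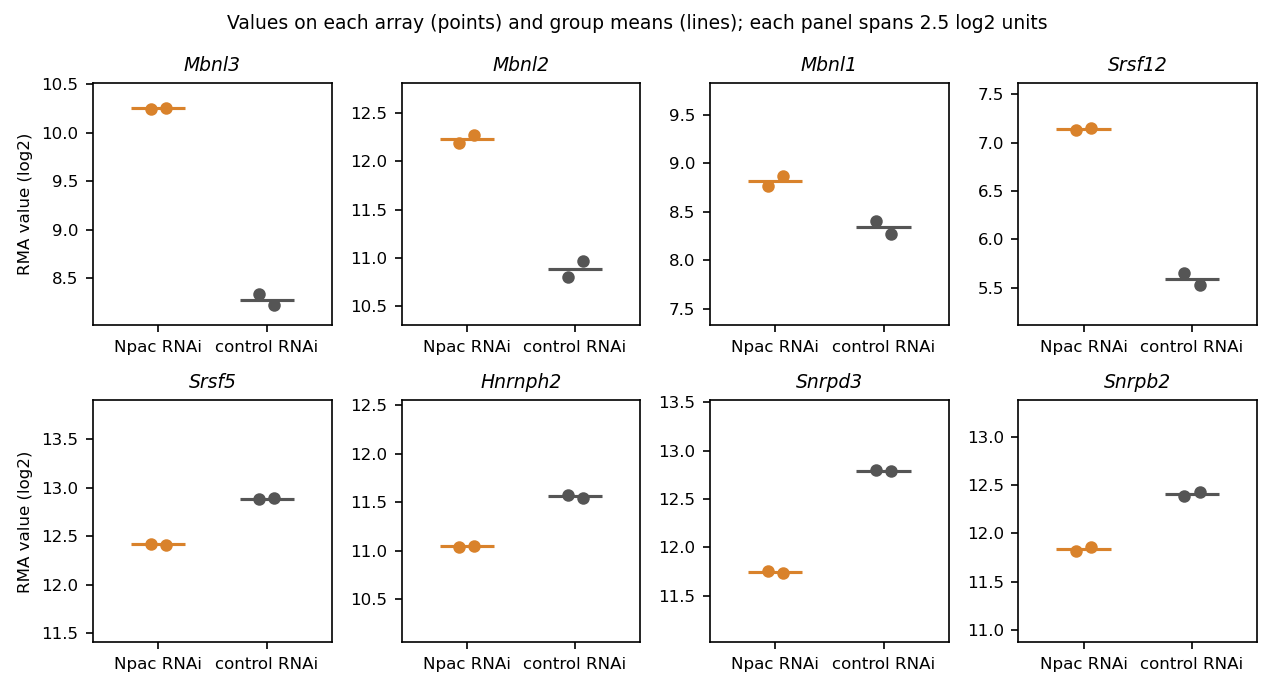
RMA values (log2, y axis) of 8 splicing factor genes on each array (points), with group means (lines), Npac RNAi left and control RNAi right; every panel spans the same range of log2 units. In each panel the 2 groups are further apart than the arrays within a group, with Npac RNAi above control RNAi for the 3 Mbnl genes and Srsf12 and below it for Srsf5, Hnrnph2, Snrpd3 and Snrpb2.

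Markers of other cell types were read beside these genes. Of 12 trophectoderm markers 11 were higher in Npac RNAi and 0 lower, and their summed linear signal was 44246 and 44706 on the Npac RNAi arrays, against 10539 and 10672 on the control RNAi arrays. The exception was Elf5, the dimmest of them (control mean 4.52). Of 8 embryonic stem cell markers 6 were lower and 0 higher, with sums of 56762 and 57253 in Npac RNAi, against 74152 and 74032 in control RNAi. Of 9 neuron markers, Rbfox3 among them, 2 were higher and 3 lower, with sums of 1968 and 2040 in Npac RNAi, against 4173 and 4197 in control RNAi, and Snap25 at a control mean of 3.38. That sum was set by Stmn2 (9.63 and 9.69 in Npac RNAi, against 11.68 and 11.70 in control RNAi), and the other 8 summed to 1175 and 1213 in Npac RNAi, against 893 and 869 in control RNAi. Of 10 fibroblast markers 1 was higher and 2 lower, with sums of 1120 and 1114 in Npac RNAi, against 1152 and 1044 in control RNAi, and Col3a1 at a control mean of 3.81. No value on this scale is 0. The part of the trophectoderm and stem cell marker shifts in the differences of Mbnl3, Mbnl2, Srsf12 and the other members was not tested. In such bulk samples more cells of a type and more RNA per cell cannot be told apart.

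SR proteins share an RNA recognition domain and a tail rich in arginine and serine that is phosphorylated as the spliceosome forms. Of 10 genes 2 were higher (20%), 3 lower (30%) and 5 not called. Over all genes 22.1% were higher and 18.7% lower. Such small subgroups were not tested against these shares. Srsf12, also named SRrp35 and reported in human to counter other SR proteins, read 7.13 and 7.15 in Npac RNAi, against 5.65 and 5.53 in control RNAi. The difference of 1.55 (SE 0.0628, limma adjusted p = 0.000977) ranked 164th highest of all genes. It rests on 1 probe set, and its level in control RNAi was close to the 25th percentile of gene means. Srsf4, which encodes SRp75, read 10.96 and 10.94 in Npac RNAi, against 10.57 and 10.61 in control RNAi (0.35, SE 0.0476, limma adjusted p = 0.00858), but was -0.18 with spike-in scaling.

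The SR genes that fell were among the best studied of the family. Srsf5, which encodes SRp40, read 12.42 and 12.41 in Npac RNAi, against 12.89 and 12.89 in control RNAi (-0.47, SE 0.0451, limma adjusted p = 0.00425). Srsf2, the gene of the nuclear speckle protein SC35, read 12.47 and 12.46 in Npac RNAi, against 12.76 and 12.76 in control RNAi (-0.30, SE 0.045, limma adjusted p = 0.0114). Both pairs of groups were clearly apart, but the call of Srsf2 was lost whichever array was left out. Srsf1, which encodes the founding SR protein SF2/ASF, was lower by a smaller step (-0.25, SE 0.0621, limma adjusted p = 0.0393). The others lay between -0.11 (Srsf9) and 0.12 (Srsf11) without a call, and among them the 95% interval of Srsf3, a gene whose product controls its own splicing, ran from -0.24 to 0.04.

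Among hnRNP genes, 2 of 19 were higher (10.5%), 5 lower (26.3%) and 12 not called, against 22.1% higher and 18.7% lower over all genes. Hnrnph1, whose product binds runs of guanine, read 13.33 and 13.35 in Npac RNAi, against 13.00 and 13.00 in control RNAi (0.34, SE 0.0452, limma adjusted p = 0.00829). Its close paralog Hnrnph2 read 11.04 and 11.05 in Npac RNAi, against 11.58 and 11.54 in control RNAi (-0.52, SE 0.0464, limma adjusted p = 0.00372). The paralogs thus lay on opposite sides of 0 on the deposited values, although Hnrnph1 was -0.20 with spike-in scaling, was lost without Npac array 2 or control array 2, and averaged 0.16 over its 2 probe sets. Hnrnpd, which encodes AUF1, a factor in decay of AU-rich messages, was higher by a small step: 12.36 and 12.40 in Npac RNAi, against 12.20 and 12.19 in control RNAi (0.18, SE 0.047, limma adjusted p = 0.0406), and -0.36 with spike-in scaling. None of its 3 probe sets was called in the fit over probe sets, and the gene call was lost with their mean.

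Lower hnRNP genes included Hnrnpul2, related to the scaffold attachment factor gene Hnrnpu, at 10.14 and 10.22 in Npac RNAi, against 10.71 and 10.68 in control RNAi (-0.52, SE 0.0527, limma adjusted p = 0.00481). Both of its probe sets were called lower, the second by -0.69. Hnrnpa1, an abundant splicing repressor, read 12.42 and 12.44 in Npac RNAi, against 12.73 and 12.79 in control RNAi (-0.34, SE 0.0497, limma adjusted p = 0.0108). All 3 of its probe sets fell, but the gene call was lost without either Npac array or control array 2. Hnrnpa1 has processed copies in the mouse genome, and further probe sets that list it with such copies were not used, so its value is uncertain in that respect. Hnrnpm (-0.27) and Hnrnpa0 (-0.28) were also lower. Other abundant members showed small differences without a call, with 95% intervals of -0.12 to 0.14 for Hnrnpk, -0.13 to 0.15 for Hnrnpu and -0.15 to 0.10 for Hnrnpc.

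Recognition of the 3′ splice site and the branch point was covered by 12 genes. U2af1, the small U2AF subunit that contacts the AG at the end of the intron, was lower (-0.23, SE 0.0486, limma adjusted p = 0.0263), whereas U2af2, the large subunit, was not called (-0.05, 95% interval -0.22 to 0.12). Of the 9 SF3A and SF3B genes 1 was lower, Sf3b5 (-0.23, SE 0.0551, limma adjusted p = 0.0342), and 8 were not called. Sf3b1, whose product holds the branch helix, had a difference of -0.02 with a 95% interval of -0.15 to 0.10, and Sf3a3 one of 0.01 with an interval of -0.14 to 0.16. Across the 9 genes the intervals reached from -0.41 to 0.20, which leaves room for changes of that size.

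Genes of snRNP proteins gave no higher and 4 lower calls among 8, against 22.1% higher and 18.7% lower over all genes. Snrpd3, which encodes SmD3 of the ring that encloses the snRNA, read 11.76 and 11.74 in Npac RNAi, against 12.80 and 12.79 in control RNAi. Its difference of -1.05 (SE 0.0457, limma adjusted p = 0.00108) ranked 43rd lowest of 18193 genes. Its other 2 probe sets were not called (-0.22 and -0.10), so that the mean over probe sets was -0.46. The gene was called lower in each of the 17 alternative settings. Snrpf, of the same ring, read 11.63 and 11.68 in Npac RNAi, against 12.0007 and 12.06 in control RNAi (-0.38, SE 0.0529, limma adjusted p = 0.00959), and lost its call without control array 2.

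Both proteins that bind U2 snRNA as a pair had lower transcripts. Snrpb2, of the U2 snRNP, read 11.82 and 11.86 in Npac RNAi, against 12.39 and 12.43 in control RNAi (-0.57, SE 0.0492, limma adjusted p = 0.00345). Another of its probe sets was called lower (-0.29) and the other was not called (-0.16), and the mean over its 3 was -0.34. Snrpa1, its partner there, read 11.54 and 11.61 in Npac RNAi, against 12.03 and 12.01 in control RNAi (-0.45, SE 0.0518, limma adjusted p = 0.00628), with all 3 probe sets lower. The remaining Sm genes Snrpb, Snrpe and Snrpg and the U1 protein gene Snrpc lay between -0.05 and 0.02 without a call. Of the 5 Sm ring genes measured here, 2 were thus called lower and 3 were not called, and the difference between them was not tested.

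PRPF genes were mixed, with 3 of 12 higher (25%), 4 lower (33.3%) and 5 not called, against 22.1% higher and 18.7% lower over all genes. Prpf3, of the U4/U6 snRNP, read 10.56 and 10.55 in Npac RNAi, against 10.05 and 10.12 in control RNAi (0.47, SE 0.0508, limma adjusted p = 0.00527). Prpf8, the scaffold at the catalytic centre, read 11.46 and 11.47 in Npac RNAi, against 11.27 and 11.26 in control RNAi (0.20, SE 0.0452, limma adjusted p = 0.0287). Both were below 0 with spike-in scaling (-0.07 and -0.34). Prpf38b, a relative of an activation factor, read 10.89 and 10.92 in Npac RNAi, against 10.66 and 10.60 in control RNAi (0.28, SE 0.0497, limma adjusted p = 0.0171), but 2 further probe sets of it were called lower (-0.25 and -0.54) and the mean over its 4 was -0.11.

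Prpf4b, a kinase that phosphorylates tri-snRNP proteins, read 10.31 and 10.51 in Npac RNAi, against 10.81 and 10.83 in control RNAi (-0.41, SE 0.0818, limma adjusted p = 0.0217). The Npac RNAi arrays lay further apart than the control RNAi arrays, and the call was lost without Npac array 1 or either control array. Prpf31, which joins U4/U6 to U5 and is mutated in inherited retinal degeneration in human, read 9.95 and 9.95 in Npac RNAi, against 10.25 and 10.28 in control RNAi (-0.31, SE 0.0464, limma adjusted p = 0.0109). That call was lost without either Npac array or control array 2 and with the mean of its 2 probe sets (-0.16), since the other was not called (-0.015). Prpf19, a ubiquitin ligase needed to activate the spliceosome, was lower in the fit over genes (-0.19, SE 0.0502, limma adjusted p = 0.0432), while its 4 further probe sets were lower too (-0.25 to -0.75). Prpf18, a factor of the second catalytic step, was also lower (-0.18, SE 0.0471, limma adjusted p = 0.0441). Its only probe set was not called in the fit over probe sets.

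Probe sets of 1 gene did not always tell the same story, and the brightest one alone does not show this. Why they differ was not tested. The 195 member probe sets come from 67 genes, and the 128 other than the brightest from 49, with 7 in all for Srsf1. Probe sets of 1 gene are not independent, so the counts that follow overstate the number of separate observations. In a fit over all 34945 probe sets with 1 symbol, 15 of the 195 member probe sets were higher (7.69%) and 69 lower (35.4%), against 17.4% higher and 16% lower over all probe sets. Leaving out the brightest probe set of each gene, 5 of 128 were higher and 52 lower (40.6%), against 14.1% higher and 15.4% lower among the 16752 such probe sets of all genes. The members' probe sets have high signal. Among such probe sets at or above the members' median level, 29 of 64 member probe sets were lower (45.3%) and 1 higher, against 24.5% lower and 20.9% higher of 1960. With 1 array left out the member probe sets lower numbered 14 (without control array 2) to 21 (without Npac array 1), with 17 without control array 1 and 20 without Npac array 2, and those higher 7 to 11.

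Of the 49 members with at least 2 probe sets, 25 had 1 or more called lower and none higher, and 4 the reverse. Another 3 had both (Mbnl2, Prpf38b and Rbfox2), and 17 had none called. The same count was not made for other genes. A gene with more probe sets has more chances of a call, so these counts do not set the members apart. Of 33 probe sets of SR genes 18 were lower (54.5%) and 2 higher. Of 58 probe sets of hnRNP genes 18 were lower (31.0%) and 1 higher. Over all probe sets 16% were lower and 17.4% higher. Srsf3 was not called as a gene, but 4 of its 6 probe sets were lower, by 0.24 to 0.53 on the log2 scale, and so were 3 of 4 of Srsf6 and 2 of 4 of Srsf10. The SF3A and SF3B genes gave 11 lower and 0 higher of 30, among them a probe set of Sf3b1 at -0.81 whose arrays read 7.63 and 7.73 in Npac RNAi, against 8.53 and 8.45 in control RNAi, while its brightest probe set was at -0.02. Where along the transcript each probe set lies was not analysed here. For 13 members the chosen probe set carries an ending (_s_at or _x_at) that marks probes shared with other transcripts.

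**Figure D3:**
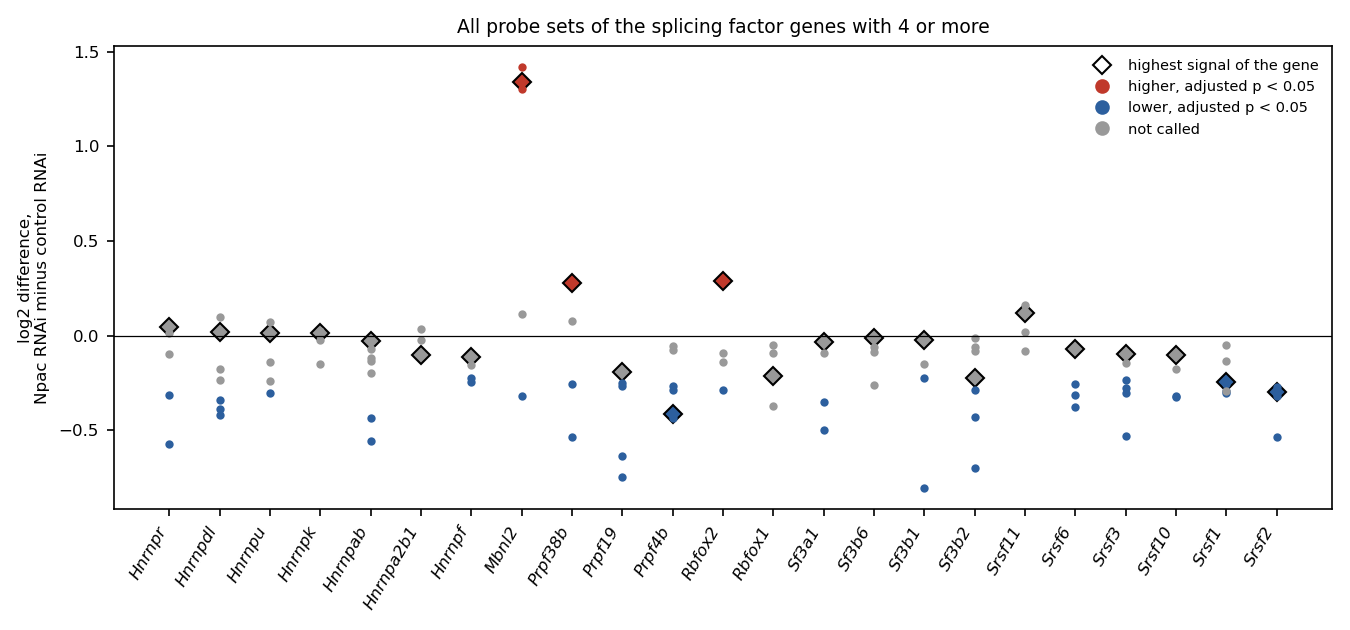
Log2 difference (Npac RNAi minus control RNAi, y axis) of every probe set of the splicing factor genes with 4 or more; diamonds are the probe set with the highest signal, used for the gene, and colour marks the call in the fit over probe sets. Many diamonds lie near 0 with further probe sets below them, whereas 3 of the 5 probe sets of Mbnl2 lie above 1.

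Proteins that work with these factors were read from 3 further lists. Of 58 measured spliceosome proteins outside the members, 6 were higher and 13 lower (32.8% called), with a median of -0.03. Over all genes 40.8% were called, 22.1% higher and 18.7% lower. The helicase gene Dhx16 (0.43, SE 0.051) and Smndc1, a relative of the survival motor neuron gene (0.35, SE 0.046), were higher, and Snrnp70, the U1 snRNP protein (-0.58, SE 0.0547), and Zmat5, of the minor spliceosome (-0.51, SE 0.0522), were lower. Both higher ones fall below 0 if 0.54 is subtracted, as spike-in scaling does, and that scaling gave 0 higher and 56 lower. Leaving out Npac array 1 gave 4 higher and 4 lower, Npac array 2 gave 1 and 4, control array 1 gave 2 and 4, and control array 2 gave 1 and 3. A trended prior gave 14 and 22, and centring 4 and 28.

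Among 60 further splicing regulators, SR-related proteins and SR kinases, 11 were higher and 18 lower, with a median of -0.02. That is 48.3% called, against 40.8% of all genes. Omitting Npac array 1 gave 7 higher and 7 lower, Npac array 2 gave 6 and 5, control array 1 gave 7 and 4, and control array 2 gave 6 and 4. Spike-in scaling gave 3 and 52, and centring 7 and 27. The epithelial splicing regulators Esrp2 (8.30 and 8.29 in Npac RNAi, against 6.70 and 6.59 in control RNAi) and Esrp1 (7.96 and 7.96 in Npac RNAi, against 6.92 and 6.87 in control RNAi) were higher, by 1.65 (SE 0.0585, limma adjusted p = 0.000801) and 1.07 (SE 0.047, limma adjusted p = 0.00111). They moved beside the trophectoderm markers given above, whose part was not tested. Tnpo3, the importin that carries SR proteins into the nucleus, read 10.25 and 10.27 in Npac RNAi, against 10.90 and 10.89 in control RNAi (-0.63, SE 0.0452). The neuronal regulator Nova1 was lower too (-0.59, SE 0.0496). Its level in Npac RNAi (5.57 and 5.55) was close to the 25th percentile of gene means (5.51), where background weighs on RMA values. Srpk1, the cytoplasmic kinase that prepares SR proteins for import into the nucleus, was also lower (-0.46, SE 0.0451). It was named after its values were seen. Other kinases of the list did not fall with it. Dyrk1a (0.37) and Clk4 (0.29) were called higher, and Clk1, Clk2, Clk3, Srpk2 and Srpk3 were not called.

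Factors that assemble, cap and import snRNPs gave 0 higher and 6 lower of 17 (35.3% lower, against 18.7% of all genes), with a median of -0.10. Of the 2595 genes of high signal described above, 22.6% were lower. Strap, a partner of the SMN complex that loads Sm proteins (-0.34, SE 0.045), and Ncbp2, of the nuclear cap-binding complex (-0.40, SE 0.0547), had the smallest adjusted p (limma, 0.00847 and 0.0092). With 1 array left out 0 to 3 of the 17 were lower, 0 without control array 2, 2 without Npac array 2 or control array 1 and 3 without Npac array 1. The list is small, and no test of it as a set was run.

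**Figure D4:**
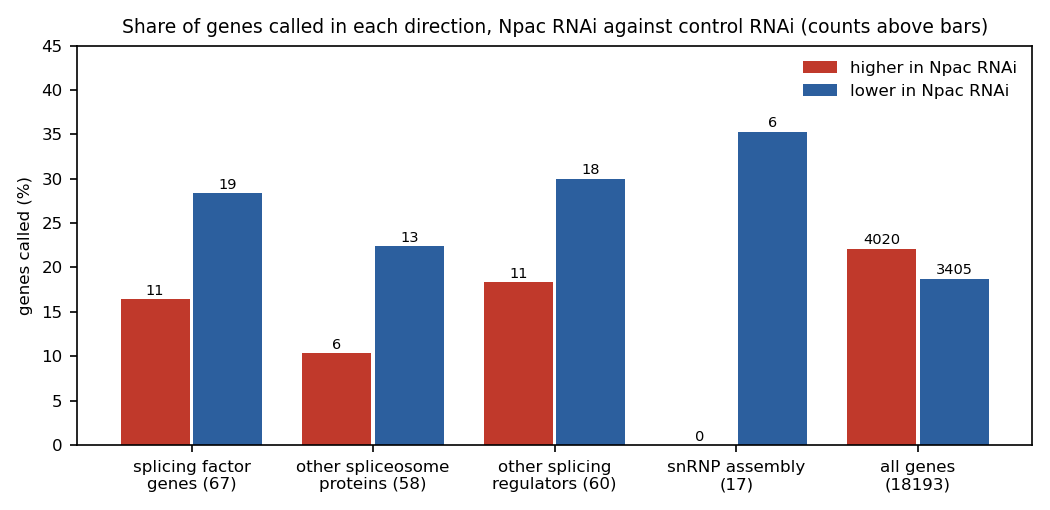
Share of genes called higher or lower in Npac RNAi (limma adjusted p under 0.05, y axis in percent, counts above the bars) among the 67 splicing factor genes, 3 related lists and all 18193 genes. At this threshold more genes were lower than higher in each of the 4 lists, whereas over all genes slightly more were higher. The order depended on the setting. At an adjusted p under 0.01 the regulators were 7 higher and 3 lower, and at 1.5-fold the splicing factor genes were 3 higher and 1 lower.

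**Figure D5:**
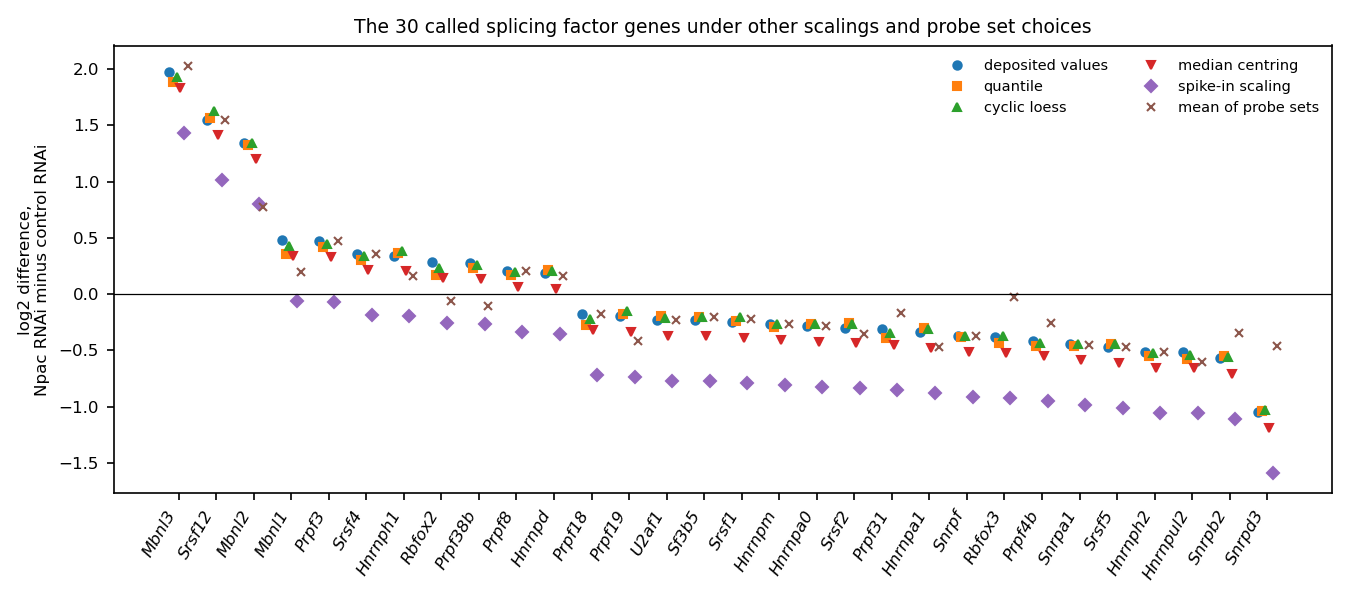
Log2 difference (Npac RNAi minus control RNAi, y axis) of the 30 called splicing factor genes on the deposited values, under 4 other scalings and with the mean of all probe sets. Spike-in scaling sets every gene 0.54 lower, so that Mbnl3, Srsf12 and Mbnl2 alone stay above 0, and the mean of probe sets pulls Snrpd3 to -0.46 and Mbnl2 to 0.77.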

How the data were processed

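RNA of 4 samples was measured on single-channel Affymetrix arrays. The deposited values were made by the authors with RMA, per the submitters' processing notes, and are log2 values, 1 per probe set and array; the log base was taken from their range, and for the software version and the genome build, not given in the sources used here, nothing was assumed. Of 45101 probe sets, 34945 had 1 symbol in the platform annotation, 932 had several and were not used, and 9160 had none. The probe set of highest mean signal stood for each gene. The groups were compared over 18193 genes by lmFit and eBayes of limma (version 3.58.1, under R 4.3.3) with Benjamini-Hochberg adjustment, and calls used an adjusted p under 0.05. The number of arrays limits the precision.

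The members and lists were chosen with earlier results of these data known. Values per array are given for the members called higher (the rule took up to 12, and 11 were called), for the 12 called lower with the lowest difference, for every Rbfox and Mbnl member and for members with probe sets called in opposite directions. From each further list the 2 higher and 2 lower called genes with the smallest adjusted p are named. Srpk1 and the other kinases of its list were added outside this rule. Scalings, probe set rules, thresholds, eBayes forms, a replicate block and leaving out each array were tried as alternatives. The code was tested on simulated data.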

Additional observations from a re-analysis of the deposited data

Results flagged for a closer look

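The poly-A spike-in probe sets, which take no part in the comparison of genes, averaged 9.20 on the Npac RNAi arrays and 8.66 on the control RNAi arrays. The difference of 0.54 on the log2 scale was seen in 24 of 24 probe sets, above the level in the control RNAi arrays. Its part in the splicing factor results was not tested beyond the scaling given under the processing.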

How the results depend on the processing

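In the counts that follow, higher comes before lower. At an adjusted p under 0.01, 3129 genes were called (2115 higher, 1014 lower), splicing factor genes 6 higher and 7 lower, their probe sets 8 and 21, spliceosome proteins 2 and 4, regulators 7 and 3, assembly factors 0 and 2. At 1.5-fold or more, 1842 genes were called (1471 higher, 371 lower), splicing factor genes 3 higher and 1 lower, their probe sets 7 and 7, spliceosome proteins 0 and 0, regulators 4 and 2, assembly factors 0 and 0. Without moderation, 2553 genes were called (1558 higher, 995 lower), splicing factor genes 7 higher and 8 lower, their probe sets 9 and 20, spliceosome proteins 5 and 8, regulators 7 and 4, assembly factors 0 and 2. With the replicate block, 4375 genes were called (2710 higher, 1665 lower), splicing factor genes 7 higher and 11 lower, their probe sets 8 and 27, spliceosome proteins 2 and 5, regulators 7 and 5, assembly factors 0 and 3. Replicate numbers were shared only by label, and same-numbered arrays deviated with a correlation of -0.166, so a crossed replicate block was added after seeing the data and gave 10 and 17 splicing factor genes. After centring, 10018 genes were called (2843 higher, 7175 lower), splicing factor genes 7 higher and 36 lower, their probe sets 11 and 117, spliceosome proteins 4 and 28, regulators 7 and 27, assembly factors 0 and 12, with a median of -0.18. With spike-in scaling, 15801 genes were called (906 higher, 14895 lower), splicing factor genes 3 higher and 60 lower, their probe sets 7 and 182, spliceosome proteins 0 and 56, regulators 3 and 52, assembly factors 0 and 17, with a median of -0.57, and the direction turned for Hnrnpd (-0.36), Hnrnpdl (-0.52), Hnrnph1 (-0.20), Hnrnpk (-0.53), Hnrnpl (-0.49), Hnrnpll (-0.40), Hnrnpr (-0.49), Hnrnpu (-0.53), Mbnl1 (-0.058), Prpf3 (-0.068), Prpf38a (-0.39), Prpf38b (-0.26), Prpf39 (-0.41), Prpf40b (-0.48), Prpf6 (-0.47), Prpf8 (-0.34), Rbfox2 (-0.25), Sf3a2 (-0.46), Sf3a3 (-0.53), Sf3b3 (-0.49), Sf3b4 (-0.47), Snrpc (-0.52), Srsf11 (-0.42), Srsf4 (-0.18), U2af1l4 (-0.38). With the mean of probe sets, splicing factor genes were 6 and 27, with a median of -0.12, and the direction turned for Hnrnpdl (-0.21), Hnrnpr (-0.19), Prpf38b (-0.11), Rbfox2 (-0.058). Without _x_at and _s_at probe sets it turned for Sf3a2 (-0.39) and the median was -0.048. The median was 0.0016 with cyclic loess and -0.042 with quantile normalization. With a trended prior, spliceosome proteins were 14 and 22 and probe sets higher 23, and over genes at or above the median level, spliceosome proteins were 13 and 20. With 1 array left out, the calls were 3088 to 4731 over all genes, 2100 to 2761 higher and 988 to 1970 lower. Splicing factor genes were 5 to 8 and 6 to 10, their probe sets 7 to 11 and 14 to 21, spliceosome proteins 1 to 4 and 3 to 4, regulators 6 to 7 and 4 to 7, assembly factors 0 and 0 to 3, and the median -0.043 to -0.029. The cause of these changes was not tested, beyond the fewer arrays or stricter thresholds of some settings. Signal near background limits Rbfox1, the control level of Srsf12 and the Npac RNAi level of Nova1.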
